A study of Mus musculus with 6 samples.

Results

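The heat shock proteins and DnaJ proteins are the folding machinery of the cell, and their transcripts were examined in the retinal pigment epithelium (RPE) and choroid of the mouse. The genes were chosen by symbol. They take in the HSP70 and HSP110 genes (Hspa and Hsph1), the HSP90 genes (Hsp90), the mitochondrial chaperonin (Hspd1 and Hspe1), the small heat shock proteins (Hspb) and the DnaJ co-chaperones of types A, B and C (Dnaja, Dnajb and Dnajc). Hspbap1 and symbols ending in a pseudogene mark were left out. Of the 33924 genes deposited, 73 symbols matched, and 69 of these had a mean normalized count of at least 10, as had 18479 genes in all. The libraries were made from poly(A) RNA of 3 young and 3 aged C57BL/6J mice, all wild type and described in the labels as male, with both eyes of a mouse in a sample. By their labels the young mice were 1 to 2 months old. The titles put the aged mice at 20 to 24 months and a separate age entry at 22 to 24, whereas the study's text describes slightly older young mice and both sexes. The labels name no treatment in either group.

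The study compared young with aged tissue, but the deposited table holds no value for a single library. Beside the comparison made by the authors, which is not used here, it gives for each gene the authors' mean of the normalized counts over all 6 libraries. All values below are therefore levels across both ages. No spread between mice, no overlap of the groups and no test of age can be given, and how deeply each library was sequenced is unknown. The values are given as 2 quantities. The mean normalized count is the authors' value. The level is this mean divided by the length of the longest annotated transcript in kilobases, and is meant to let long and short genes be compared. The study's methods derive the normalized counts from TPM values, a unit that already takes length into account. Whether the deposited means keep that correction is unknown. If they do, dividing by length corrects for it again, and the levels, their ratios and their order would be skewed. Levels of genes that stand next to each other in the order cannot be separated, since their error is unknown. In bulk tissue fewer cells of a type and less RNA per cell cannot be told apart.

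Chaperones bind proteins that are not yet folded or have lost their fold. In the HSP70 cycle a DnaJ protein, or J protein, brings the client and starts the hydrolysis of ATP, HSP70 holds the client, and a nucleotide exchange factor such as an HSP110 protein lets it go. HSP90 takes over clients at a late step, chaperonins enclose them, and small heat shock proteins hold unfolded proteins without ATP. The RPE is a non-dividing epithelium that takes up shed photoreceptor tips every day, and its load of proteins to be folded and degraded is known to be high.

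As a check of the tissue, the RPE markers were among the most abundant transcripts, with a median level of 54535 over 8 genes and 61154 for Rpe65, the isomerase of the visual cycle. Best1, an RPE channel, was the exception at a level of 39.3. Other tissues were represented too. The median level was 9859 for 5 rod genes, 28023 for 5 skeletal muscle genes, 27461 for 2 red cell genes, 5946 for 4 macrophage genes, 915 for 5 endothelial genes, 838 for 5 smooth muscle and pericyte genes and 211 for 5 lens genes. Of the 2 red cell genes Alas2 stood at only 781, far under Hba-a1. A further red cell gene, Hbb-b1, had a mean normalized count of 90982 but no matched length. These values are means over both ages like all others, so whether they moved with age was not examined. The part of these cells in the levels given below was not tested.

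The chaperone transcripts were abundant as a group. The 69 genes held 0.854% of all normalized counts while making up 0.373% of the genes with a mean of at least 10. With counts per kilobase the share was 0.520%. Their median level was 542, against 214 for all 17952 genes with a mean of at least 10 and an annotated length, a ratio of 2.54 that lay between 1.89 and 5.52 under other minimums and definitions of length. Of the 69 genes 54 (78.3%) stood above the median gene and 15 stood at or under it. The top 10% of all genes held 15 of them (21.7%), and the top 1% held Hspa8. The spread within the group was wide, with the highest level 3158 times the lowest. The counts were concentrated in few genes, as the 3 with the most counts held 44.5% of the counts of the group and the 6 with the most held 57.5%.

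**Figure D1:**
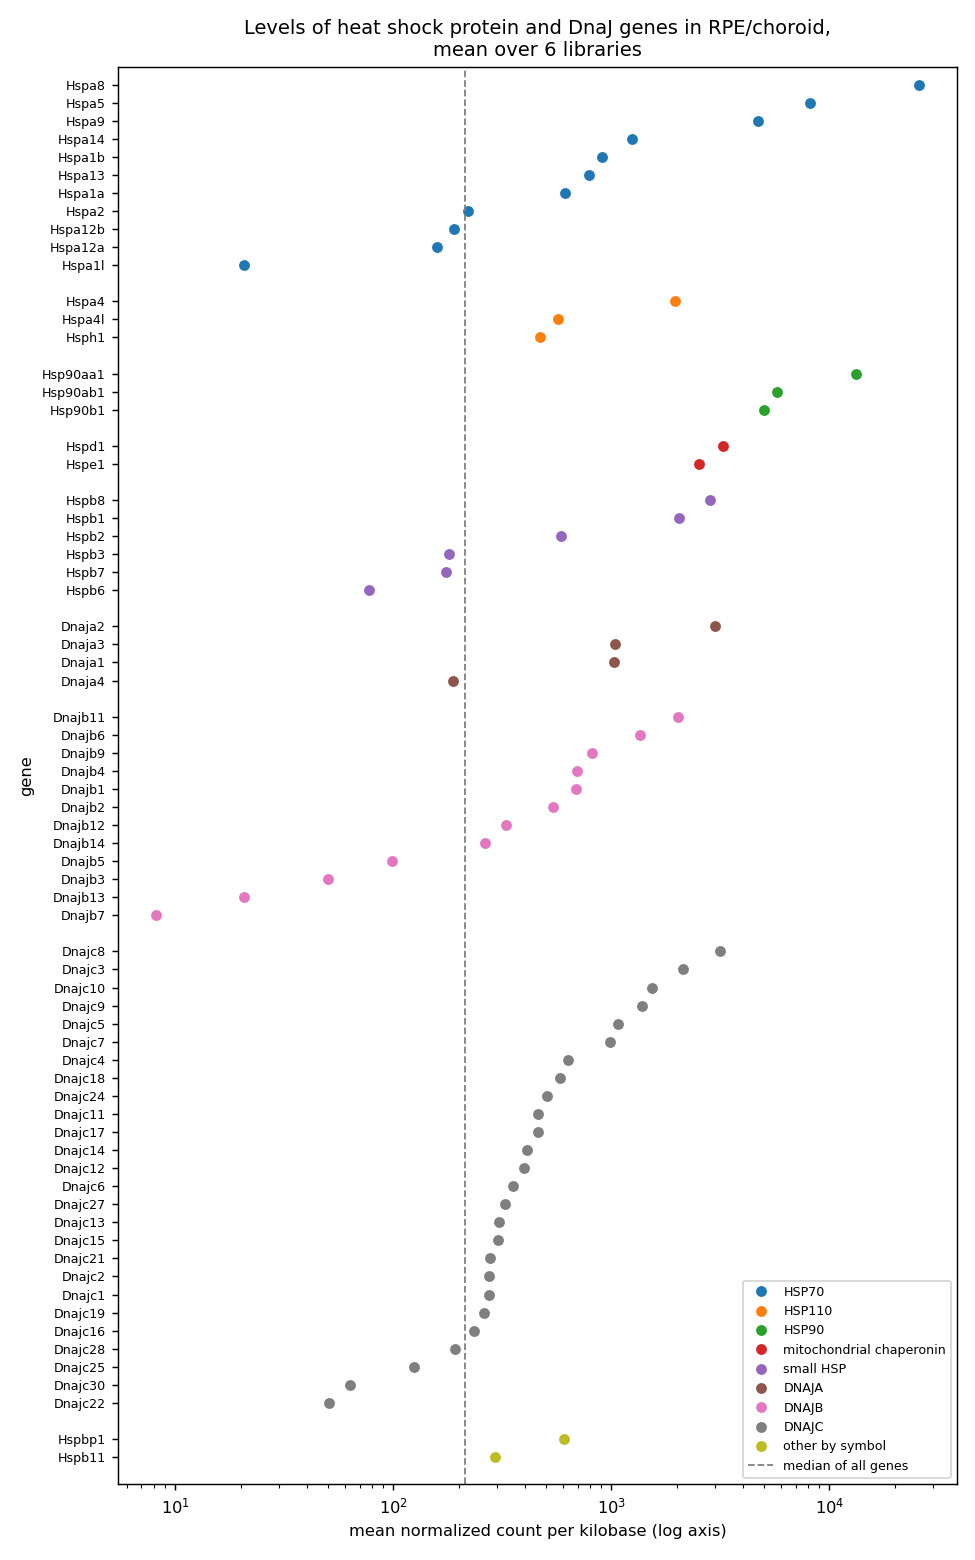
Level of each of the 69 genes, as the authors' mean normalized count over the 6 libraries per kilobase of the longest transcript, on a log axis, grouped by class. Points are single means with no error, and the dashed line is the median of all genes (214). All 3 HSP90 genes and both mitochondrial chaperonin genes lie to the right of it, while HSP70 and DNAJB genes lie on both sides.

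**Figure D2:**
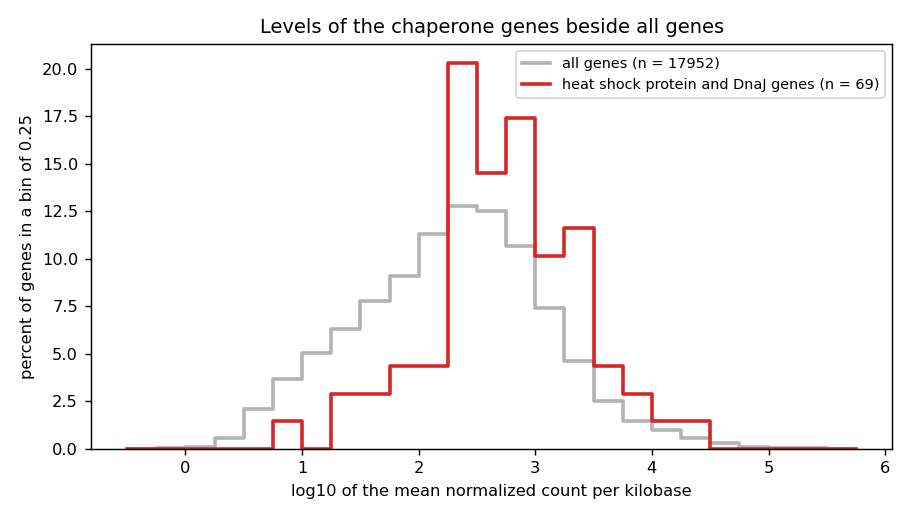
Distribution of the levels of the 69 chaperone genes (red) and of all 17952 genes with a mean of at least 10 and a length (grey), as the percent of genes in each bin of log10 level. The chaperone genes sit to the right of all genes, with medians of 542 and 214 on the linear scale.

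By class, the 11 HSP70 genes held 39.6% of the group's counts, the 42 J proteins 28.5%, the 3 HSP90 genes 21.3%, the 3 HSP110 genes 4.80%, the 2 chaperonin genes 2.95% and the 6 small heat shock proteins 2.37%. Per kilobase the sums were 42890 for HSP70, 28896 for J proteins, 24049 for HSP90, 5896 for small heat shock proteins, 5775 for the chaperonin and 3007 for HSP110. The J proteins were many and mostly of middle level, with a median of 404 and 33 of 42 above the median gene, whereas each HSP90 gene was in the top 10% of all genes.

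Many heat shock genes are known targets of heat shock factor 1, which binds repeats of the letters GAA in alternating orientation. Promoter windows of RefSeq (GRCm38.p6, from 250 bases before to 50 bases after each start) were given for 56 of the 69 genes, and both strands were searched for 3 such repeats with 2 free bases between them, written GAANNTTCNNGAA or TTCNNGAANNTTC. Of the 56 genes 4 held a match (7.14%), namely Hspd1, Hspe1, Hsph1 and Dnajb6. A match was present in 0.578% of the 11591 genes with a mean of at least 10 and a window, and in 0.603% of all 32851 windows. The matches are shown because they are a sequence feature that the choice of genes did not use. They are given 5′ to 3′ on the strand of the gene, with the repeats in capitals.
Hspe1, plus strand, chr1:55088051-55088079: acggtccgTTCTAGAACCTTCcggaaggc
Hspe1, plus strand, chr1:55088056-55088084: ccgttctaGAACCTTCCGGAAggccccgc
Hspd1, minus strand, chr1:55088051-55088079: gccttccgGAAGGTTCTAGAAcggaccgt
Hspd1, minus strand, chr1:55088056-55088084: gcggggccTTCCGGAAGGTTCtagaacgg
Dnajb6, plus strand, chr5:29735844-29735872: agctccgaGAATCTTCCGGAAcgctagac
Hsph1, minus strand, chr5:149636280-149636308: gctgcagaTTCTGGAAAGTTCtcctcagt
The lines of Hspe1 and Hspd1 with the same coordinates are the same bases read on opposite strands, so these genes share their matches. With 1 mismatch allowed, 14 of the 56 genes (25%) and 6.71% of the 11591 genes held a match. The 10 genes added were Hspa1a, Hspa1b, Hspb1, Hspb3, Hspb6, Dnaja1, Dnaja4, Dnajb4, Dnajc8 and Dnajc27. For 13 genes, among them Hspa8, Hsp90aa1 and Hsp90ab1, no window was given. A match describes the letters in the window and does not show that a factor bound there, and the absence of a match says nothing of sequence outside it.

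Among the HSP70 genes, Hspa8, the constitutive cytosolic HSP70 (HSC70), was by far the most abundant. It lies on the plus strand of chr9:40800984-40810087 (GRCm38) and had a level of 25855 (mean normalized count 81651), which is 121 times that of the median gene. Hspa8 alone held 23.4% of the counts of the group. Hspa5, the HSP70 of the endoplasmic reticulum (ER) known as BiP, followed with a level of 8180 (mean normalized count 30036). Hspa9, the mitochondrial HSP70 known as mortalin, had a level of 4714 (14374). The level of Hspa8 was thus 3.16 times that of Hspa5 and 5.48 times that of Hspa9. Over this and 2 other definitions of length, the median over the transcripts and the coding sequence, the first ratio lay between 2.14 and 3.16 and the second between 5.48 and 5.97, with Hspa8 the highest under each.

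The stress-inducible HSP70 genes were detected at a much lower level. Hspa1b had a level of 904 (mean normalized count 2534) and Hspa1a a level of 615 (mean normalized count 1824). Hspa8 stood 17.0 times above the summed level of both, 65.3 times with the median transcript and 18.6 times with the coding sequence as length. Hspa1b and Hspa1a lie on the minus strand of chromosome 17, with 9951 bases between them, at chr17:34956436-34959238 and chr17:34969190-34972156. Of the words of 100 bases in Hspa1b 49.9% also occurred in Hspa1a, so the division of counts between the pair is uncertain. Hspa1l, best known from testis, starts 546 bases from Hspa1a on the opposite strand and had a level of only 20.6.

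The other HSP70 genes were of middle or low level. Hspa14, which works with a J protein at the ribosome, stood at 1242, and Hspa13, a short HSP70 of the ER, at 791. Hspa2, best known from testis, had a level of 220, close to that of the median gene. The atypical HSP70 genes Hspa12b, known from endothelium, and Hspa12a had levels of 190 and 158. With the longest transcript 8 of the 11 HSP70 genes were thus above the median gene, and the class ranged from 20.6 to 25855. The place of Hspa12a depends on the length. It stood at 1122 with the median transcript, above the median of all genes (434), and at 447 with the coding sequence, under it (530). The ratio of Hspa12a to Hspa12b lay between 0.832 and 3.48, so their order is not fixed. Hspa2 was under the median gene with the median transcript (221) and the coding sequence (293).

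The HSP110 proteins are relatives of HSP70 that act as its nucleotide exchange factors. Hspa4 had a level of 1969 (mean normalized count 9092), Hspa4l of 569 (5397) and Hsph1 of 469 (2233). The order of Hspa4 and Hspa4l depends on the length taken, as their ratio was 3.46 with the longest transcript and 0.735 with the median transcript. The ratio of Hspa4 to Hsph1 was 4.20 with the longest transcript and 0.996 with the least favourable length. For comparison, 10 genes from outside this class were listed as nucleotide exchange factors, and all had a mean of at least 10. Whether each of them has this activity was not examined. Their median level was 552, with 9 of 10 above the median gene. Bag1, which binds HSP70 and the proteasome, was the highest at 5397, followed by Sil1, the exchange factor of BiP, at 2427. Grpel1, which serves mortalin in mitochondria, stood at 1026, and Hyou1, the HSP110 relative of the ER, at 361. Bag2 was the lowest at 199. Hspbp1, an HSP70 exchange factor that the symbol rule took in, had a level of 604, and Hspb11, an intraflagellar transport protein despite its symbol, of 294.

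All 3 HSP90 genes were abundant. Hsp90aa1, known as the inducible cytosolic form, had a level of 13272 (mean normalized count 43547). Hsp90ab1, known as the constitutive cytosolic form, had a level of 5763 (14522). Hsp90b1 (GRP94), the form of the ER, had a level of 5014 (16154). The inducible form therefore stood 2.30 times above the constitutive one, and up to 3.47 times with other lengths. The ratio of Hsp90ab1 to Hsp90b1 was 1.15 and lay between 0.996 and 1.45 over the 3 definitions of length, so these cannot be ordered. Trap1, the mitochondrial HSP90, has another symbol and had a level of 1123.

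The HSP90 co-chaperones were all expressed above the median gene, 14 of 14, with a median level of 822. Fkbp4, an immunophilin that binds HSP90 with steroid receptors, was the highest at 3687 and Fkbp5, its relative, the lowest at 318. Ahsa1, which speeds up the ATPase of HSP90, stood at 2687, Ptges3 (p23), which holds the closed form, at 1530, and Cdc37, which brings kinases, at 433. Of the 6 genes listed as adaptors of HSP70 and HSP90 or as their ubiquitin ligase, all were above the median gene, with a median of 1436. They included St13 (HIP) at 4065, Stip1 (HOP) at 1962 and the ubiquitin ligase Stub1 (CHIP) at 1302.

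The mitochondrial chaperonin consists of a barrel of Hspd1 (HSP60) and a lid of Hspe1 (HSP10). Hspd1 had a level of 3243 (mean normalized count 7857) and Hspe1 a level of 2533 (2442). Their ratio was 1.28 with the longest transcript, 3.24 with the median transcript and 0.573 with the coding sequence, so their order is set by the length used. The genes stand head to head on chromosome 1, Hspd1 on the minus strand at chr1:55077835-55088243 and Hspe1 on the plus strand at chr1:55088132-55091307. The annotated genes overlap, so position alone does not assign a read that lies wholly in the overlap. The labels name a stranded library kit, but whether the counting used strand is not given in the sources used here. The matches to the heat shock repeat printed above lie in the promoter windows of both. Of Hspd1's words of 100 bases 25.8% also occurred in the pseudogene Hspd1-ps3.

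For comparison, the cytosolic chaperonin TRiC had a median level of 2373 over its 9 genes, of which 8 were above the median gene. Cct5 was the highest at 4894, while Cct6b, a form known from testis, stood at 19.8. Prefoldin, which hands new proteins to TRiC, had a median level of 3226 over the 5 of its 6 genes that were listed, from 275 for Pfdn2 to 13076 for Pfdn5.

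The levels of the small heat shock proteins ranged from 77.8 to 2833. Hspb8, which works with Bag3 in the removal of misfolded proteins by autophagy, had a level of 2833 (mean normalized count 5145), and Hspb1 (HSP27 in humans) a level of 2040 (1897). The ratio of Hspb8 to Hspb1 was 1.39, and up to 2.89 with other lengths. Bag3 had a level of 455 (mean normalized count 1166), so Hspb8 stood 6.22 times above its partner. The ratio was 8.81 with the median transcript, 13.0 with the coding sequence and 4.41 in mean normalized counts. The members known from skeletal and heart muscle were lower, with levels of 590 for Hspb2, which was above the median gene, 181 for Hspb3, 174 for Hspb7 and 77.8 for Hspb6. The 5 skeletal muscle markers were at a median level of 28023 in these libraries, and their part in the levels of these 4 genes was not tested. Hspb9, known from testis, was under the minimum with a mean normalized count of 8.19. The α-crystallins belong to the same family under other symbols. Cryab had a level of 3483 and Cryaa of 6577, each above every Hspb gene with this definition of length. Among the lens markers Crygs was at 2381 and Mip at 17.3, and the part of lens RNA in the value of Cryaa was not tested. Hspb2 and Cryab overlap head to head, at chr9:50751078-50752354 and chr9:50751325-50756636, and Cryab stood 5.90 times above Hspb2. Most of the annotated Hspb2 gene lies in the overlap, where position alone does not assign a read. The level of Hspb2 and this ratio are therefore uncertain.

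The DNAJA proteins are the J proteins nearest to the bacterial DnaJ. Dnaja2 had a level of 2987 (mean normalized count 8719), Dnaja3, the mitochondrial form TID1, of 1038 (2750), Dnaja1 of 1031 (5796) and Dnaja4 of 188 (565). Dnaja2 and Dnaja4 differed by 15.9 times, and by 14.9 to 16.5 times over the definitions of length. The order of Dnaja2 and Dnaja1 was not fixed, as their ratio was 2.90 with the longest transcript and 0.765 with another length.

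Of the 13 DNAJB genes 12 had a mean of at least 10, with a median level of 435, and 8 stood above the median gene. The highest were Dnajb11 (ERdj3), the main J partner of BiP for new clients, at 2020, Dnajb6, which keeps aggregation-prone proteins soluble, at 1356, Dnajb9 (ERdj4), a BiP partner in ER stress, at 817, Dnajb4 at 700 and Dnajb1, the classical HSP40, at 692. Dnajb6 stood 1.96 times above Dnajb1 with the longest transcript, 7.02 times with the median transcript and 1.78 times with the coding sequence. With the median transcript Dnajb6 (4972) was also above Dnajb11 (2856). Dnajb13, a protein of the axoneme, was at 20.6 and Dnajb7, known from testis, was the lowest of all 69 genes at 8.19. Dnajb8, also known from testis, was listed at 0.

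Of the 28 DNAJC genes, a class that shares only the J domain, 26 had a mean of at least 10, with a median level of 376 and 22 above the median gene. Dnajc8, which associates with the spliceosome, was the highest at 3153 with the longest transcript. Dnajc3 (p58IPK), a co-chaperone of BiP in the ER lumen, followed at 2133, and Dnajc10 (ERdj5), an ER reductase of disulfide bonds, at 1530. Dnajc9, a histone chaperone, stood at 1383 and Dnajc5, the cysteine string protein of secretory vesicles, at 1077. With the coding sequence as length the order turned, with 11931 for Dnajc5 and 7632 for Dnajc8. In mean normalized counts Dnajc3 (10963), Dnajc5 (7087) and Dnajc10 (6186) were above Dnajc8 (5793). Dnajc30 and Dnajc22 were the lowest with 63.2 and 50.6. The relatives of Dnajc5 in the vesicle group were under the minimum, Dnajc5b with a mean normalized count of 2.40 and Dnajc5g listed at 0. Together with Hspb9 and Dnajb8 these are the 4 matched genes under a mean of 10. Just inside the minimum were Dnajb7 with a mean normalized count of 11.2, Hspa1l with 50.8 and Dnajb3 with 52.8.

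Ordered by the compartment in which the proteins are known to act, the 36 genes of the cytosol and nucleus had a summed level of 72490, which was 65.1% of the summed level of the group, and held 61.4% of its counts. Within it HSP70 genes summed to 28857, HSP90 genes to 19035, J proteins to 15091 and HSP110 genes to 3007. The 7 genes of the ER lumen summed to a level of 20484 and 21.2% of the counts, with 8971 for HSP70, 6500 for J proteins and 5014 for HSP90. All 7 ER lumen genes were above the median gene, 4 of them in the top 10%, and their median level of 2020 was above that of the cytosol and nucleus (597). The order of these 2 was the same with the median transcript (2856 and 1090) and with the coding sequence (4726 and 1412). Other compartments moved more. The median of the vesicle genes was 355 with the longest transcript, 3083 with the median transcript, above the ER lumen, and 651 with the coding sequence. That of the mitochondrial genes was 460, 2785 and 1909. The 9 mitochondrial genes summed to 12808, of which the chaperonin made up 5775, mortalin 4714 and the J proteins 2318. The 7 J proteins of the ER membrane summed to 2222 with a median level of 275, and the 3 vesicle genes with a mean of at least 10 to 1736. The lowest J protein of the ER lumen (Dnajb9 at 817) stood over the highest of the ER membrane (Dnajc18 at 583) with the longest transcript, but under it with the median transcript (1414 and 4024).

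**Figure D3:**
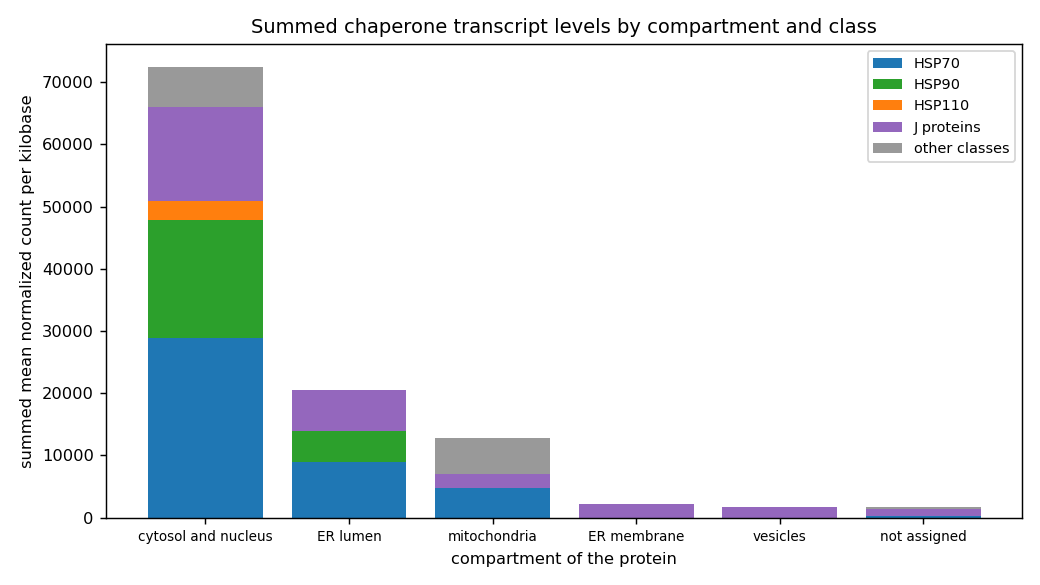
Summed level (mean normalized count per kilobase of the longest transcript) of the genes with a mean of at least 10 in each compartment, stacked by class, with bars starting at 0. The cytosol and nucleus reach 72490, the ER lumen 20484 and the mitochondria 12808, and there is no error bar because the deposited values are means over all libraries.

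The heat shock factors, the transcription factors known to act on many heat shock genes, were of lower level. Hsf1, the main heat shock factor, had a level of 171, Hsf2 of 175 and Hsf4, known from lens, of 153, each under the median gene of 214. For Hsf2 this rests on the division by length. Its mean normalized count of 791 was above the median of all genes (668), while those of Hsf1 (537) and Hsf4 (267) were under it. Hsf3 stood at 7.30 and Hsf5 had a mean normalized count of 5.47. Hsbp1, a small protein that binds heat shock factor 1, had a level of 3023. Among the relatives that carry other symbols, Serpinh1 (HSP47), the collagen chaperone of the ER, was the highest at 8133. The median over the 9 of these 10 genes with a mean of at least 10 was 746.

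Several chaperone genes have processed pseudogenes that share their sequence, which bears on how counts are divided. Of the 69 genes 48 had all of their words of 100 bases to themselves, and 7 had under 75%. The latter were Hspa1b (50.1%), Hspa1a (51.4%), Hsp90aa1 (52.5%), Hspb1 (57.3%), Hspa8 (68.4%), Dnajb6 (69.0%) and Hspd1 (73.1%). Some of the pseudogenes were themselves listed with high means. Gm8355, which shares 11.6% of the words of Hspa8, had a mean normalized count of 27413, which is 33.6% of that of Hspa8. Gm12346, which shares 39.6% of the words of Hsp90aa1, had 17061, which is 39.2% of that of Hsp90aa1, and Gm5844, which shares 20.4%, had 4843. For Dnaja1 the pseudogenes Gm15542 and Gm7816 were listed at 3439 and 1322, beside 5796 for Dnaja1 itself. For Dnajb6 the pseudogenes Gm6395, Gm13414 and Gm2541 were listed at 2467, 1626 and 944, beside 3955. In contrast Gm15459, which shares 28.9% of the words of Hspa8, was listed at 6.51, and Hsp25-ps1, which shares 42.7% of those of Hspb1, at 62.0. The counts of Hspa8, Hsp90aa1, Dnaja1 and Dnajb6 are therefore uncertain, and whether reads of the coding genes were counted for the pseudogenes was not tested.

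The 3 highest genes, Hspa8, Hsp90aa1 and Hspa5, had the same order under all 3 definitions of length. Of the 10 genes with the highest level 8 were also among the 10 highest with the median transcript and 7 with the coding sequence. The plot of the 20 highest genes shows how far single values moved with the definition. A single exon in every annotated transcript was found for 6 of the 69 genes, namely Hspa1a, Hspa1b, Hspb3, Dnajc30, Dnajb3 and Dnajb7. Their median level was 122, against 569 for the others. The 69 genes lay on 18 chromosomes.

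**Figure D4:**
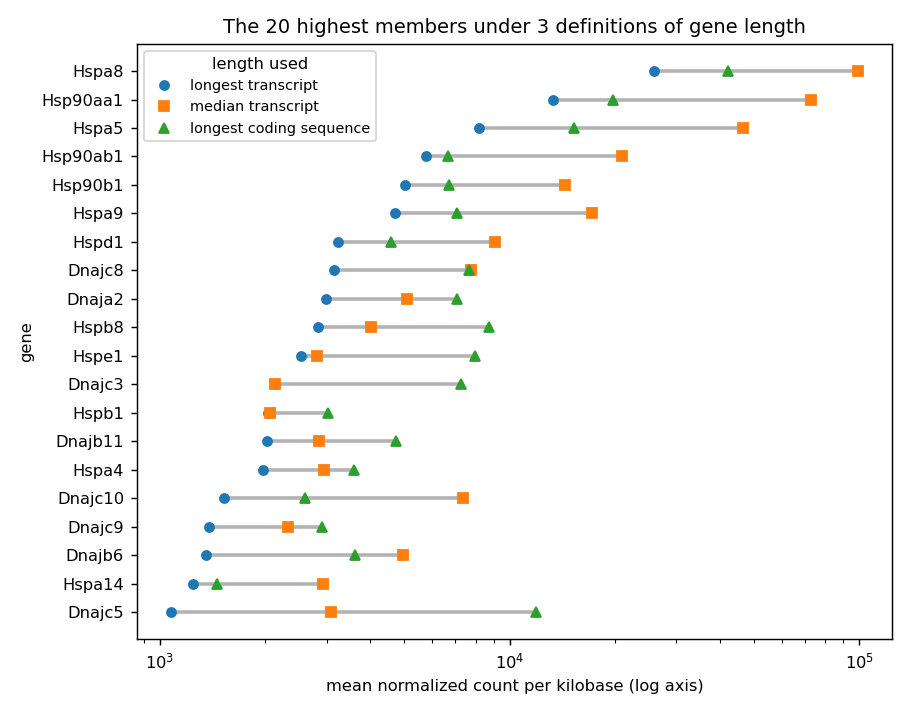
Level of the 20 highest genes on a log axis with the length of the longest transcript (circles), the median transcript (squares) and the longest coding sequence (triangles). Hspa8, Hsp90aa1 and Hspa5 lead under each definition, while Dnajc5 moves furthest, from 1077 with the longest transcript to 11931 with the coding sequence.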

How the data were processed

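Poly(A) RNA of RPE/choroid from 3 young and 3 aged mice was measured by sequencing. The study's methods and the submitters' processing notes name BBDuk for trimming, STAR for mapping to GRCm38, Sailfish for quantification, scaling to total counts and DESeq2 for the comparison of ages. By the study's methods Sailfish gave TPM values, which were then turned into normalized counts. The deposited signal used here is the authors' mean normalized count over the 6 libraries. The other 5 columns (log2 fold change, standard error, Wald statistic, p-value and adjusted p-value) hold the comparison of the authors and were not used. The planned limma fit needed values per library and was not made.

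Means were divided by transcript lengths from GENCODE vM21 (GRCm38), matched for 97.1% of genes with a mean of at least 10. Own sequence was counted in words of 100 bases. The members, lists and classes were chosen with earlier results of these data known, and roles and compartments were assigned after the values were seen. The genes named were all heat shock proteins and DNAJA members, the 5 highest and 2 lowest DNAJB and DNAJC members, and the genes under or next to the minimum. Of the gene lists the count, median, highest and lowest were given, except 1 lowest gene that is not reported here, and the further list genes, pseudogenes, Dnajc18, Dnajc27 and the other genes with a promoter match were chosen after their values were seen. The motif search and the division by length were tested on simulated data, and the symbol rule on a set of names. The simulated sequences held only C and T around the planted motifs, so they could not show false matches. The other steps were not tested in this way. Python 3.11.15, numpy 2.4.6, pandas 2.3.3 and matplotlib 3.10.9 were used.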

Additional observations from a re-analysis of the deposited data

How the results depend on the processing

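The median level of 542 became 1288 with the median transcript and 1460 with the longest coding sequence as length, 556 with a mean of at least 50, 506 with no minimum above 0 and 524 without the highest gene. The median of all genes moved too, so the ratio of both medians, 2.54, lay between 1.89 (mean of at least 50) and 5.52 (no minimum). The share of 0.854% became 0.875% without mitochondrial genes, 1.07% without the 100 highest genes (chaperones kept), 0.865% without crystallin, hemoglobin and rod genes and 0.520% with counts per kilobase. These shifts follow from the lengths or from the genes left out. With 1 mismatch the genes with a heat shock repeat rose from 4 to 14. The number of genes over the minimum was 70 at a mean of 5 and 68 at a mean of 50. No paired analysis was possible because single libraries have no values in the deposited file. The planned comparison of ages, its pseudocounts and filters, and leaving out each mouse were for this reason not run. Protein ends and identities were not run either. No value here carries an error between mice, and depth is unknown. Whether the normalized counts were already corrected for length is unknown too, and all levels rest on dividing them by length. Without this division the median mean normalized count was 1889 for the chaperone genes and 668 for all genes.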

Other observations

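Among the pseudogene symbols that the choice of genes left out, Hspe1-ps6 had a mean normalized count of 141 and, being short, a level of 498 per kilobase, above the median gene (214). The mean normalized count was 63.2 for Dnaja1-ps, 19.3 for Hspa9-ps1, 1.02 for Hspe1-ps4 and 0.169 for Hspe1-ps5, with levels of 98.4, 9.97, 3.55 and 0.568 per kilobase, and Hspe1-ps2 was listed at 0. Hspbap1, which encodes a protein that binds Hspb1, had a mean normalized count of 221. Some processed pseudogenes with Gm symbols reached higher values. Per kilobase, Gm8355 had a level of 14123, Gm12346 of 7566, Gm6395 of 3570 and Gm15542 of 2880. With the longest transcript the last 2 were above the coding genes with which they share sequence, Dnajb6 (1356) and Dnaja1 (1031). These coding genes stood at 4972 and 6655 with the median transcript and at 3612 and 4867 with the coding sequence. Their mean normalized counts (3955 and 5796) were above those of Gm6395 (2467) and Gm15542 (3439).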
